A study of Mus musculus with 2 samples.

Results

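The genes described here encode 49 enzymes and enzyme regulators of glycolysis, of pyruvate entry into mitochondria, of the pentose phosphate pathway and of the tricarboxylic acid (TCA) cycle. They were chosen by symbol, and all 49 were found among 46398 gene symbols in both libraries, each on a single row. The list holds 21 glycolysis genes, 6 genes of the pyruvate dehydrogenase (PDH) complex and its kinases, 7 pentose phosphate genes and 15 TCA cycle genes. Poly(A) RNA had been sequenced from effector regulatory T cells (effector Treg cells), which express the transcription factor Foxp3 and carry an activated surface phenotype. There was 1 library of Nrn1+/- cells, whose title calls them wild type, and 1 library of Nrn1-/- cells. Both came from C57BL/6 mice that also carried a Foxp3DTRgfp allele, and both were sorted as CD4+ and CD25+ cells of an effector surface phenotype with high CD44 and the Foxp3 reporter. The labels give neither the age nor the number of mice behind each library, nor the extent of the Nrn1 deletion.

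Glycolysis splits glucose into pyruvate in the cytosol, and lactate dehydrogenase can then reduce pyruvate to lactate. The pentose phosphate pathway branches off at glucose 6-phosphate and yields NADPH and ribose for nucleotides. Pyruvate that enters mitochondria is turned into acetyl-CoA by the PDH complex, which PDH kinases inhibit, and the TCA cycle oxidises it. Activated T cells are known for high glycolytic flux, while regulatory T cells are known to rely on mitochondrial oxidation as well.

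Levels are in FPKM, the fragments of a gene per kilobase of its transcript and per 1000000 fragments, so they can be compared between genes. Ratios are Nrn1-/- over Nrn1+/-. Folds carry no pseudocount, whereas log2 ratios were taken after adding 1 FPKM to each value, and a gene was counted as past 1.5-fold on that log2 scale. With 1 library per genotype there was no test, and nothing below has been checked against the spread between animals. Intervals in parentheses are 95% intervals from estimated fragment counts and cover counting error only. All 49 genes had a mean of at least 1 FPKM, the minimum for the 12344 genes compared.

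Nrn1 itself stood at 66.5 FPKM in Nrn1+/- and 4.62 FPKM in Nrn1-/- cells. The marker genes of Treg cells were present in both (Foxp3 at 257 and 195 FPKM, Il2ra at 601 and 564 FPKM). As deposited, 0 of these 6 were higher in the Nrn1-/- library, where 52.3% of all genes compared were. Markers of myeloid cells summed to 0.858 and 0.708 FPKM over 6 genes, those of dendritic cells to 0.379 and 0.486 FPKM over 4, and those of red cells to 0.528 and 0.202 FPKM over 3. Those of B cells summed to 5.64 and 7.27 FPKM over 5 genes, mostly Cd79b. The 3 NK cell markers summed to 4.04 and 3.598 FPKM and the 2 CD8 markers to 4.92 and 3.93 FPKM. Of the marker lists, that of proliferating cells differed most: as deposited, 32 of 32 were higher in the Nrn1-/- library and 31 past 1.5-fold. Of all genes compared, 52.3% were higher and 7.5% past 1.5-fold higher. The proliferation markers had a summed level of 1401 FPKM in Nrn1+/- against 2890.2 FPKM in Nrn1-/- cells. The part that this difference in proliferation genes has in the enzyme values below was not tested. In bulk RNA, more cells of a kind and more RNA per cell cannot be told apart.

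As deposited, most of the enzyme genes were higher in the Nrn1-/- library. Of the 49, 42 were higher, where 52.3% of all genes compared were, and 28 once both libraries were brought to a total of 1000000 FPKM, where 24.4% of all genes were. Past 1.5-fold were 11 genes higher (22.4%) and 1 lower, against 7.5% and 5.27% of all genes compared. Of protein-coding genes alone, 54.3% were higher, 7.01% past 1.5-fold higher and 3.69% past 1.5-fold lower. The 11 were Hk2, Tpi1, Gapdh, Pgk1, Pgam1, Eno1, Pkm and Ldha of glycolysis, Tkt of the pentose phosphate pathway, and Idh2 and Idh3a of the TCA cycle, and the lower one was Pdk2. The median log2 ratio of the 49 was 0.33, beside 0.02 over all genes compared and 0.04 over the 10695 protein-coding ones.

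By summed level and by median log2 ratio the difference was largest in glycolysis, but its genes did not share one direction. As deposited, 16 of the 21 were higher and 5 lower (Pfkp, Pfkfb4, Aldoc, Eno2 and Ldhb). At a total of 1000000, 11 of the 21 were higher. Of all genes compared, 52.3% and 24.4% were higher in these settings. The 8 genes Aldoa, Tpi1, Gapdh, Pgk1, Pgam1, Eno1, Pkm and Ldha made up 3822 and 6129 FPKM of the glycolysis sum. All 21 glycolysis genes summed to 4426 FPKM in Nrn1+/- and 6806 FPKM in Nrn1-/- cells, which is 0.746% and 1.05% of all protein-coding FPKM. The 15 TCA cycle genes summed to 951 and 1206 FPKM (0.160% and 0.186%) and the 7 pentose phosphate genes to 429 and 568 FPKM (0.0723% and 0.0878%). The glycolysis sum was 4.65 times the TCA cycle sum in the Nrn1+/- library and 5.64 times in the Nrn1-/- library, and this ratio within a library does not depend on how the libraries were scaled. The ratio of the TCA cycle to the pentose phosphate sum was nearly alike, at 2.22 and 2.12.

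**Figure D1:**
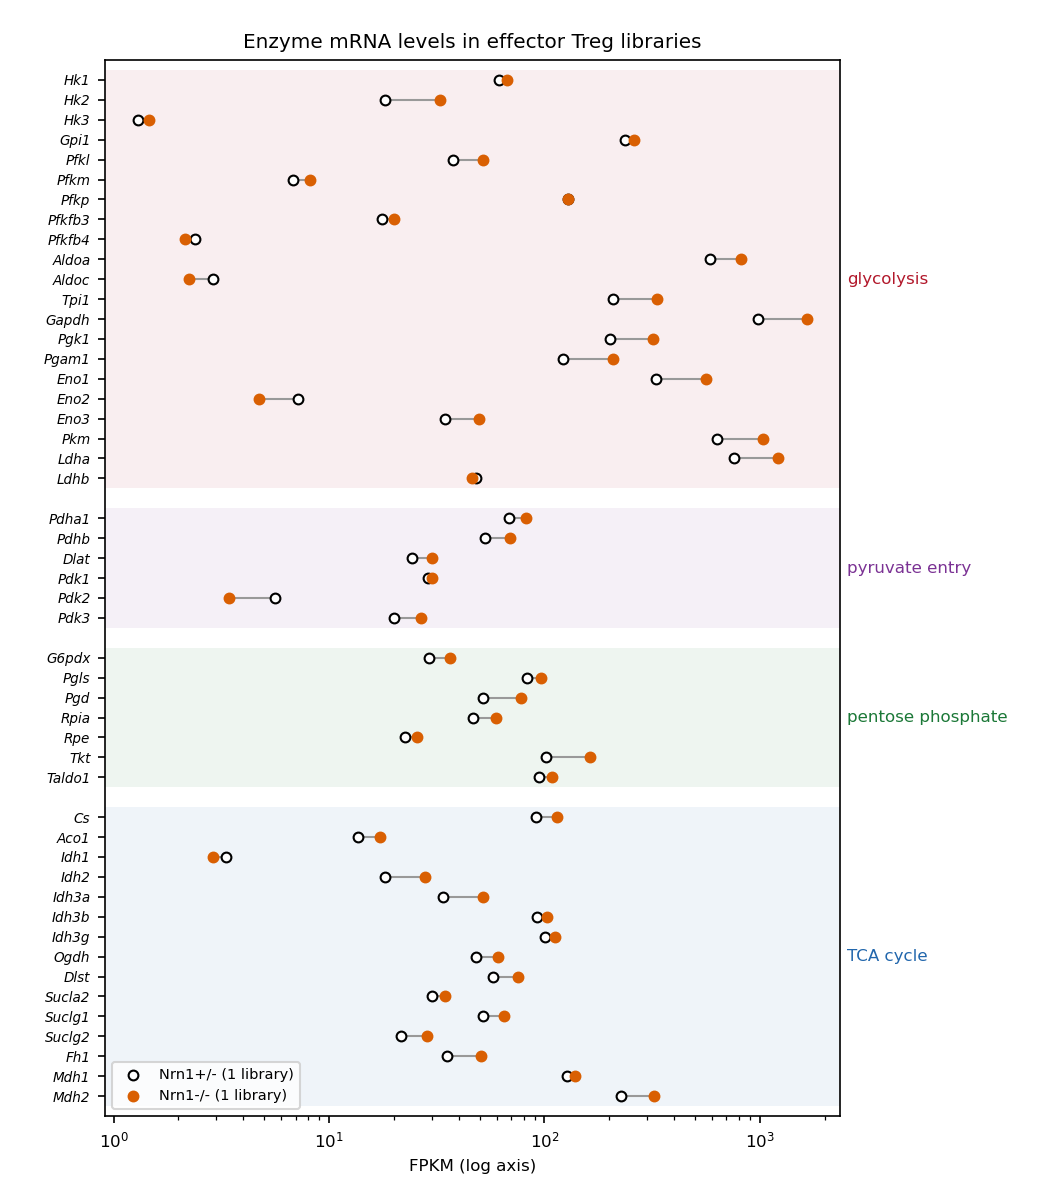
FPKM of the 49 enzyme genes on a log axis, grouped by pathway, with open circles for the Nrn1+/- library and filled circles for the Nrn1-/- library. Levels run from 1.30 FPKM for Hk3 to 1649.5 FPKM for Gapdh, and the widest gaps among abundant genes lie between Tpi1 and Ldha.

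Highly expressed genes as a whole leaned higher in the Nrn1-/- library, and many glycolysis genes are highly expressed. Among protein-coding genes above 100 FPKM the median log2 ratio was 0.20, and 11.1% of 1004 genes were past 1.5-fold higher. Of the 16 enzyme genes at that level, 8 were past 1.5-fold higher, with a median of 0.58. Between 20 and 100 FPKM the enzyme median was 0.35 over 24 genes, beside 0.08 over 4011 protein-coding genes. The 5 enzyme genes under 5 FPKM, Hk3, Pfkfb4, Aldoc, Pdk2 and Idh1, had a median of -0.15, beside -0.05 over 1977 protein-coding genes.

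**Figure D2:**
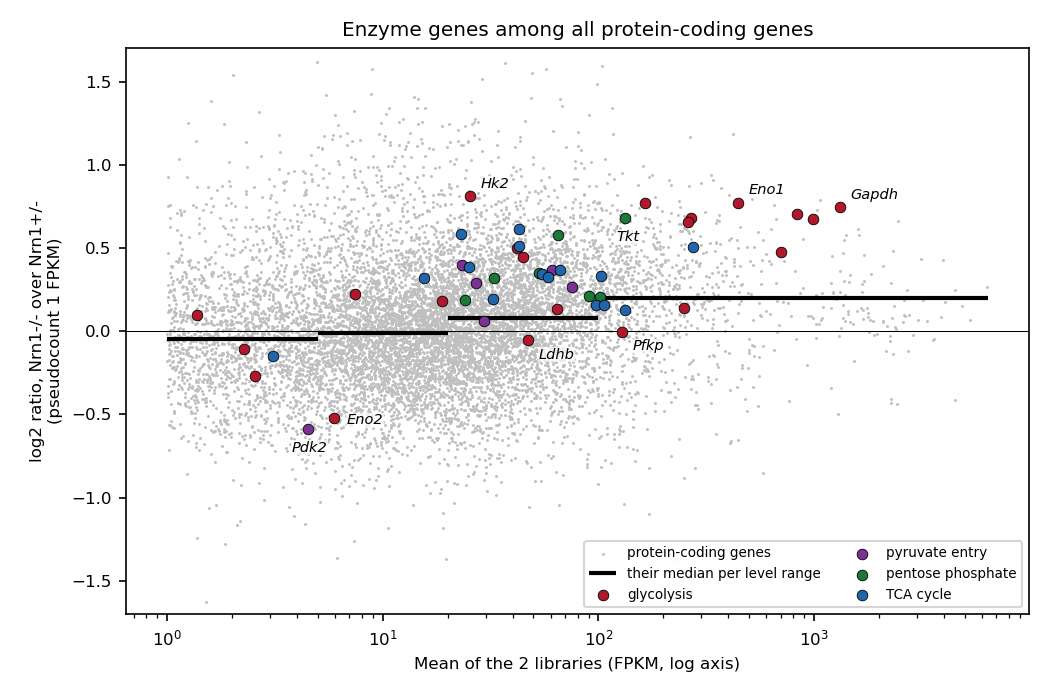
Log2 ratio of Nrn1-/- over Nrn1+/- (1 FPKM added to each value) against the mean level in FPKM on a log axis, with protein-coding genes in grey, their median in each of 4 level ranges as black bars and the enzyme genes in colour. Most coloured points above 20 FPKM lie above the black bars, and 8 protein-coding genes fall outside the drawn range.

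In the first steps of glycolysis, from hexokinase to aldolase, 3 of the main genes lay close together in the libraries. Hk1, the hexokinase of most tissues, was at 61.3 FPKM in Nrn1+/- and 67.2 FPKM in Nrn1-/- cells, and Gpi1, which isomerises glucose 6-phosphate, at 237 and 262 FPKM. Pfkp, the platelet-type phosphofructokinase and the most abundant of its isoforms here, was at 128.9 and 128.7 FPKM, a fold of 0.998 (0.978 to 1.02). These 3 genes, which carry most of the transcripts of their steps, thus differed by at most 1.10-fold as deposited, and all 3 were lower in the Nrn1-/- library at a total of 1000000. Aldoa, the main aldolase, was at 587 and 815 FPKM, 1.39-fold higher. Of the less abundant genes, Pfkl was 1.37-fold higher and Aldoc 1.30-fold lower.

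Hk2 was the only gene of these steps past 1.5-fold and had the largest log2 ratio of all 49 genes. Hk2 encodes the inducible hexokinase that binds to mitochondria and is typical of activated and tumour cells. It lies on chromosome 6 (82725025 to 82774454, minus strand, GRCm38) and was at 18.2 FPKM in Nrn1+/- and 32.7 FPKM in Nrn1-/- cells, 1.79-fold higher (1.72 to 1.87, log2 ratio 0.81). That log2 ratio lay at percentile 97.3 of protein-coding genes.

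From triosephosphate isomerase onwards the main enzyme of every step was past 1.5-fold higher. Tpi1, which interconverts the triose phosphates, was at 207 FPKM in Nrn1+/- and 332 FPKM in Nrn1-/- cells. Gapdh, the NADH-yielding dehydrogenase often used as a reference gene, was at 985 and 1649.5 FPKM, 1.68-fold higher (1.66 to 1.69), with rank 95 and rank 61 among protein-coding genes. The kinase that makes the first ATP of the pathway, Pgk1, was at 201 and 318 FPKM. All 3 were thus higher by 1.58-fold to 1.68-fold as deposited.

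The next steps showed the same size of difference. Pgam1, a phosphoglycerate mutase, was at 122 FPKM in Nrn1+/- and 208 FPKM in Nrn1-/- cells, and Eno1, the widely expressed enolase, at 328 and 561 FPKM, both 1.71-fold higher. Pkm, the pyruvate kinase gene whose splice forms are not separated in these values, was at 631 and 1030.1 FPKM, 1.63-fold higher. Ldha, the lactate dehydrogenase subunit that favours lactate formation, was at 760.2 and 1215 FPKM, 1.60-fold higher. These 7 genes had log2 ratios between 0.66 (Pgk1) and 0.77 (Eno1), and with a common protein-coding sum only Gapdh, Pgam1 and Eno1 of them stayed past 1.5-fold.

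The split along the pathway was described after the values were seen. The 10 genes from Tpi1 to Ldhb had a median log2 ratio of 0.68 and the 9 from Hk1 to Aldoc one of 0.14. Their sums stood in a ratio of 3.07 in Nrn1+/- and 3.96 in Nrn1-/- cells, 1.29 times as high, which no scaling between libraries alters. Reads of Gapdh, Eno1, Pgam1, Pgk1 and Ldha can also fall on near-identical copies, so their values carry that uncertainty.

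**Figure D3:**
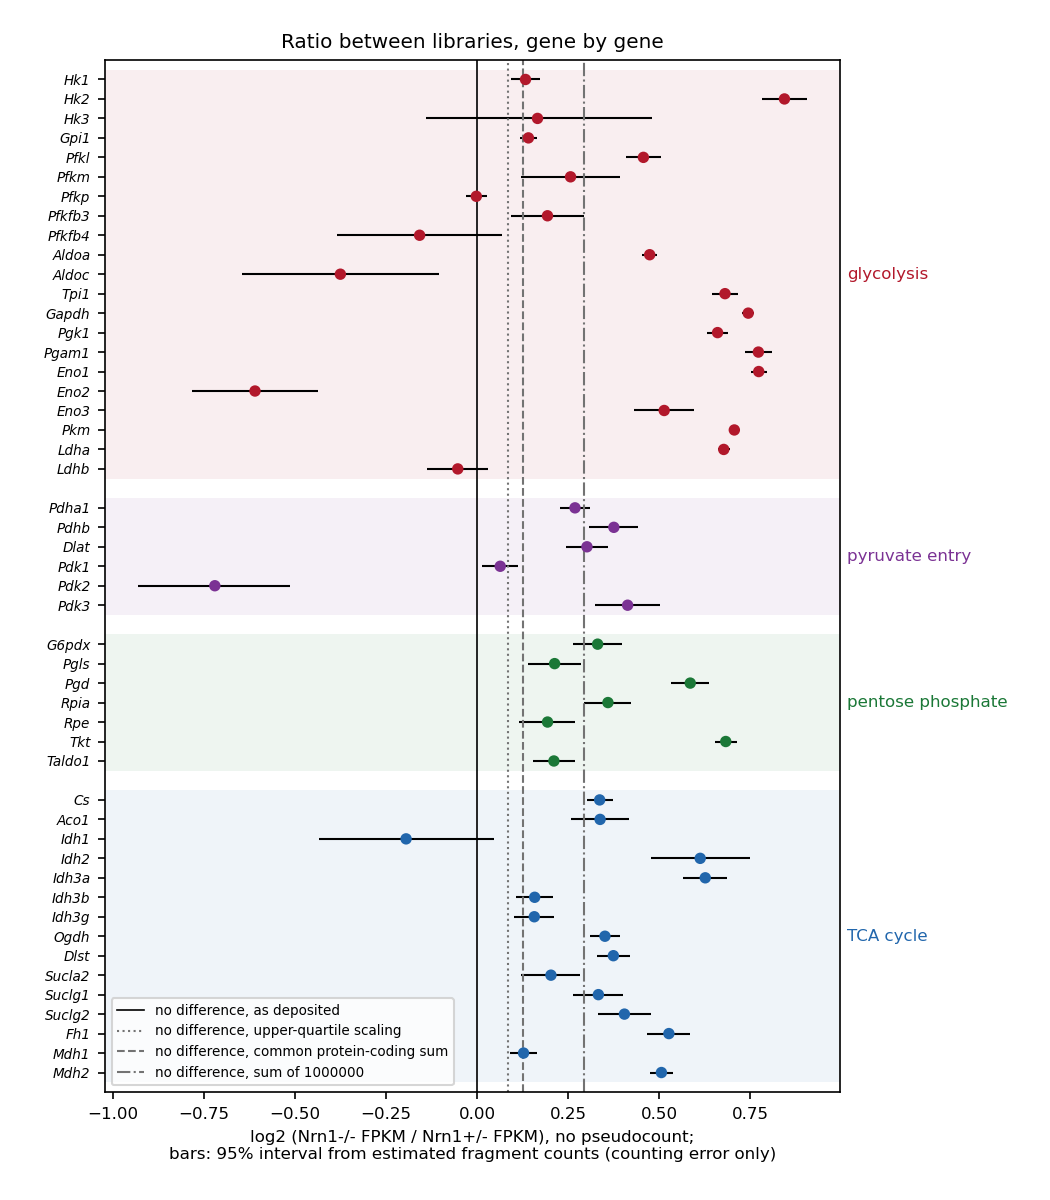
Log2 of the FPKM ratio (Nrn1-/- over Nrn1+/-, no pseudocount) for each of the 49 genes, with 95% intervals from estimated fragment counts as bars. Vertical lines mark where no difference would lie as deposited and under 3 other scalings. From Tpi1 to Ldha the main isoforms lie to the right of all 4 lines, while Hk1, Gpi1, Pfkp and Ldhb lie to the left of the line for a sum of 1000000.

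Promoters of genes past 1.5-fold are shown because most of these genes were higher together and several factors known to act on them bind short, searchable motifs. Windows of 300 bases around the annotated start (RefSeq, GRCm38.p6) were found for 48 of the 49 genes, all but Idh3a, 69 windows in all. They were searched on both strands for NACGTG, which holds one form of the core bound by hypoxia-inducible factors. NACGTG also takes in CACGTG, the E-box bound by MYC and MAX. Other forms of the hypoxia core were not searched. Printed here are the 150 bases before the start, 5′ to 3′ on the gene's strand, for every window of a gene past 1.5-fold in either direction that holds NACGTG in that stretch, with the letters ACGTG or their reverse complement in capitals.
Hk2, chr6:82774455-82774604, minus strand: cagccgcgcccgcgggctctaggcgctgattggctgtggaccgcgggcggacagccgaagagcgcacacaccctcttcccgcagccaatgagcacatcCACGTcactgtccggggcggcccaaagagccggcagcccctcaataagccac
Pgk1, chrX:106186950-106187099, plus strand: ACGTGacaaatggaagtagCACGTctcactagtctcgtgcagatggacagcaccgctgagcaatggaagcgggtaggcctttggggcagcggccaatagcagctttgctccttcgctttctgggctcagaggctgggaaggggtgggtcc
Pgam1, chr19:41911721-41911870, plus strand: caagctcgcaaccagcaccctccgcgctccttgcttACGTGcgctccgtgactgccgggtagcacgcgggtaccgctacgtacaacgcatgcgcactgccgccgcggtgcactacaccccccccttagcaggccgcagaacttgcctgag
Pkm, chr9:59657077-59657226, plus strand: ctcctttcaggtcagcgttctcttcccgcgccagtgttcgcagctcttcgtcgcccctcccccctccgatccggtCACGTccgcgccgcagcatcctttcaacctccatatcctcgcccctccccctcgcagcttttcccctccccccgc
Ldha, chr7:46845654-46845803, plus strand: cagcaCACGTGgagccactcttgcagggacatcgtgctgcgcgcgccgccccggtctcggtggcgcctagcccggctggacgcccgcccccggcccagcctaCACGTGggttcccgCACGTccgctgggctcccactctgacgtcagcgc
Pdk2, chr11:95041372-95041521, minus strand: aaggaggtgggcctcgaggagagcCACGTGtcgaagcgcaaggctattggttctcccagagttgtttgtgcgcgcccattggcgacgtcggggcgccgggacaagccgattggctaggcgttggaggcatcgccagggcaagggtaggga
In the Ldha window CACGTG occurred at positions -145 and -48 from the start, and in that of Pdk2, the one gene past 1.5-fold lower, at -126. Counted by gene, NACGTG was in a window of 19 of the 48 members (39.6%), against 21.7% of all 27025 genes and 29.9% of the 8502 genes at a mean of 1 FPKM or more. Counted by window it was in 27 of 69 (39.1%), against 19.6% and 25.8%, and 6 of those 27 windows belonged to alternative, partly overlapping starts of Ogdh. It was in windows of 6 of 10 matched genes past 1.5-fold higher and of 13 of the other 38. The 6 were Hk2, Pgk1, Pgam1, Pkm, Ldha and, after the start, Gapdh, while windows of Tpi1, Eno1, Tkt and Idh2 held no NACGTG. By pathway it was in 12 of 21 glycolysis genes, 3 of 6 genes of pyruvate entry, 1 of 7 pentose phosphate genes and 3 of 14 TCA cycle genes. By window, CACGTG alone was in 10.1% of those of members, 7.15% of all and 10.2% of those of expressed genes. TGACNNNGC, the core of the antioxidant response element bound by NRF2, was in 13.0%, 12.4% and 14.5%, with G6pdx and Pgd as its 2 pentose phosphate genes. GGGCGG, the SP1 box, was in 62.3%, 35.7% and 63.1%. These are matches of letters and no measure of binding.

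Levels of the regulators themselves were as follows. Hif1a, the oxygen-regulated subunit of hypoxia-inducible factor 1, was at 93.3 FPKM in Nrn1+/- and 83.3 FPKM in Nrn1-/- cells, and its partner Arnt at 27.9 and 22.6 FPKM. Myc was at 152 and 189 FPKM, and Nfe2l2, which encodes NRF2, at 14.8 and 13.6 FPKM. None of 10 regulators at a mean of 1 FPKM or more was past 1.5-fold, and as deposited 6 were higher and 4 lower. Egln1 and Egln3, counted here among the regulators and not among the hypoxia targets below, were 1.17-fold and 1.23-fold higher. Of all genes compared, 7.5% were past 1.5-fold higher and 5.27% lower. Of 8 known hypoxia targets outside these pathways, 6 could be compared. Of these, 5 were lower as deposited, among them Vegfa (9.15 and 6.33 FPKM) and Ndrg1 (10.3 and 7.46 FPKM). Bnip3 was at 17.3 and 18.0 FPKM, with an interval of the fold (0.946 to 1.15) that includes no difference. Of all genes compared, 52.3% were higher. The remaining 2, both under the minimum level, were higher as deposited: Car9 was at 0.379 and 0.921 FPKM (1.60 to 3.75 for the fold) and P4ha2 at 0.514 and 0.585 FPKM (0.752 to 1.71). Car9 rested on about 36 and 67 fragments. A part of hypoxia-inducible factors in the enzyme values was not tested.

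Isoforms of a step differed by unequal amounts, and in several steps, among them enolase and the PDH kinases, in opposite directions as deposited. Isoform shares within a step do not depend on scaling. In the hexokinase step Hk2 made up 22.5% of the summed FPKM in the Nrn1+/- library and 32.2% in Nrn1-/- cells, while Hk1 made up 75.9% and 66.3%. The ratio of Hk2 to Hk1 was 1.64 times as high in the Nrn1-/- library (1.56 to 1.72). Hk3, the myeloid-enriched form, was at 1.30 and 1.46 FPKM, with an interval of the fold (0.907 to 1.40) that includes no difference. Among the phosphofructokinases Pfkl, the liver type, was at 37.8 and 51.9 FPKM and made up 21.8% and 27.5%, and Pfkp 74.3% and 68.2%. Pfkm, the muscle type, was at 6.80 and 8.12 FPKM, 3.92% and 4.31% of the step.

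In enolase and lactate dehydrogenase the dominant isoform held a larger share in Nrn1-/- cells. Eno2, the enolase typical of neurons, was at 7.20 FPKM in Nrn1+/- and 4.72 FPKM in Nrn1-/- cells, 1.53-fold lower (1.35 to 1.72) and just short of 1.5-fold on the log2 scale with its pseudocount. Eno1 thereby stood to Eno2 as 45.6 to 1 and as 119 to 1, a 2.61-fold difference (2.32 to 2.94) and the widest among the isoform pairs. Eno3, typical of muscle, was at 34.6 and 49.5 FPKM, 9.36% and 8.04% of the step. Ldhb, the subunit that favours pyruvate formation, was at 47.9 and 46.1 FPKM, and the ratio of Ldha to Ldhb was 15.9 in Nrn1+/- and 26.3 in Nrn1-/- cells, 1.66 times as high (1.57 to 1.76). Aldoc, an aldolase typical of brain, was at 2.89 and 2.23 FPKM beside Aldoa, under 0.5% of the step in both libraries.

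Eno2 and Tpi1 are neighbours on chromosome 6 with 40.9 kb between them, both on the minus strand (124760053 to 124769673 and 124810586 to 124814296, GRCm38), and Gapdh lies 347 kb further on (125161715 to 125166467). Of these 3 genes Tpi1 and Gapdh were past 1.5-fold higher, and Eno2 had the lowest log2 ratio of the 21 glycolysis genes (-0.52). The bifunctional enzymes that set fructose 2,6-bisphosphate, an activator of phosphofructokinase, differed little. Pfkfb3 was at 17.6 and 20.1 FPKM and Pfkfb4 at 2.39 and 2.14 FPKM.

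**Figure D4:**
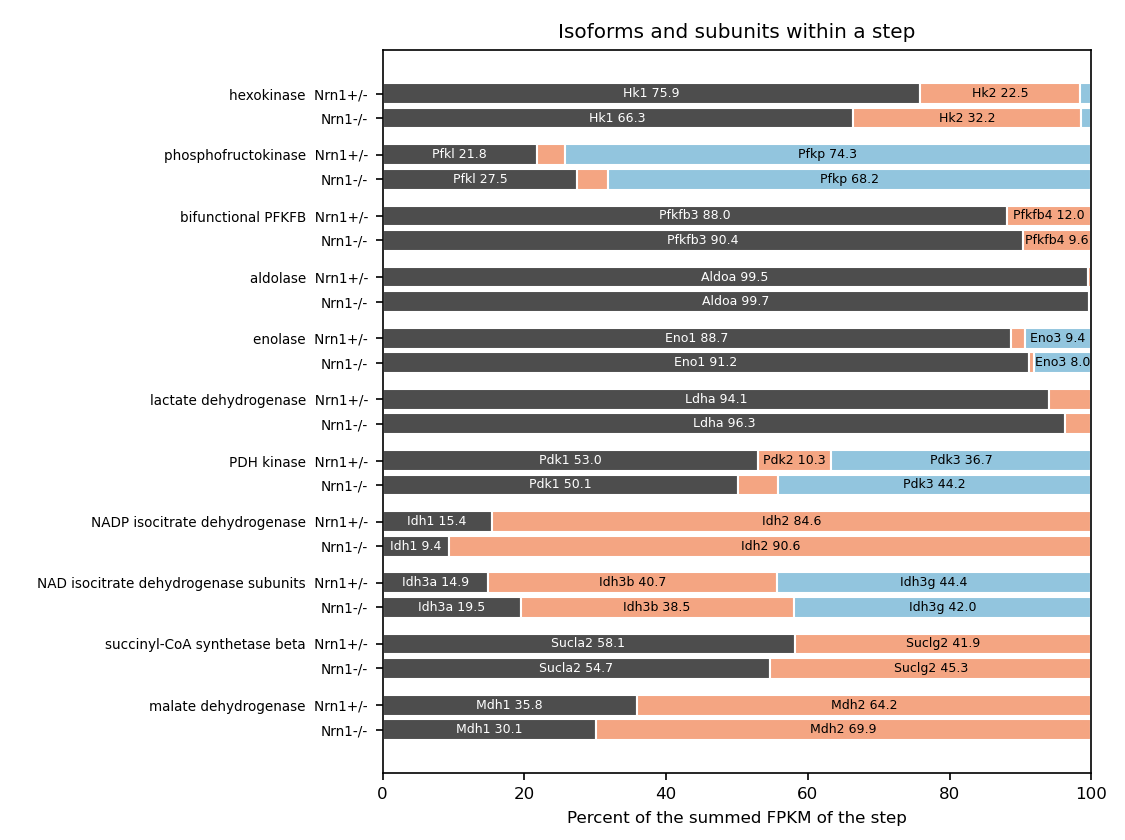
Share of each isoform or subunit in the summed FPKM of its step, in percent, with the Nrn1+/- library above the Nrn1-/- library in each pair of bars. Hk2 goes from 22.5% to 32.2%, Pdk2 from 10.3% to 5.67% and Idh3a from 14.9% to 19.5%.

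At the entry of pyruvate into mitochondria the PDH complex and its kinases were at moderate levels. Pdha1 and Pdhb, the subunits of the E1 component, were at 68.3 and 82.3 FPKM and at 53.2 and 69.0 FPKM in the Nrn1+/- and Nrn1-/- libraries. Dlat, the E2 component, was at 24.4 and 30.03 FPKM. These 3 genes of the complex were 1.20-fold to 1.30-fold higher as deposited, and at a total of 1000000 Pdha1 was lower.

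The kinases differed in direction. Pdk2, a widely expressed kinase gene, was at 5.63 FPKM in Nrn1+/- and 3.42 FPKM in Nrn1-/- cells, 1.65-fold lower (1.43 to 1.91) with a log2 ratio of -0.59, just past 1.5-fold. Pdk3 was at 20.004 and 26.6 FPKM, and Pdk1, a known target of hypoxia-inducible factor, at 28.9 and 30.2 FPKM. The ratio of Pdk2 to Pdk3 was 0.282 and 0.128, 2.19 times as high in the Nrn1+/- library (1.88 to 2.56). The summed kinases stood to the summed complex as 0.374 and 0.332. Pdk4 was listed at 0 in both libraries.

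All 7 pentose phosphate genes were higher as deposited, and 4 of 7 at a total of 1000000, against 52.3% and 24.4% of all genes. The median log2 ratio of the 7 was 0.32 as deposited. In the oxidative branch, which yields NADPH, G6pdx, its rate-limiting dehydrogenase, was at 29.1 FPKM in Nrn1+/- and 36.5 FPKM in Nrn1-/- cells. Pgls, which opens the lactone, was at 83.4 and 96.6 FPKM. Pgd, the second dehydrogenase, was at 51.9 and 77.9 FPKM, and its log2 ratio of 0.58 fell just short of 1.5-fold.

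In the non-oxidative branch, which shuttles sugars back to glycolysis, Tkt, a transketolase on chromosome 14 (30548359 to 30574720, plus strand, GRCm38), led with 102 and 163 FPKM. It was 1.61-fold higher (1.57 to 1.64). Taldo1, the transaldolase that works beside it, was at 94.1 and 109 FPKM, so Tkt was nearly level with it in Nrn1+/- cells and above it in Nrn1-/- cells. Rpia and Rpe, which interconvert pentose phosphates, were at 46.4 and 59.5 FPKM and at 22.5 and 25.7 FPKM. Tkt thus stood apart from the other 3 genes of its branch, whose folds were 1.14 to 1.28.

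Of the 15 TCA cycle genes 14 were higher as deposited and 10 at a total of 1000000, against 52.3% and 24.4% of all genes. The median log2 ratio of the 15 was 0.33 as deposited. Cs, citrate synthase, was at 91.0 FPKM in Nrn1+/- and 115 FPKM in Nrn1-/- cells. Idh3a, the catalytic subunit of the NAD-dependent isocitrate dehydrogenase, was at 33.8 and 52.1 FPKM, 1.54-fold higher (1.48 to 1.61). The other subunits of that enzyme, Idh3b (92.4 and 103 FPKM) and Idh3g (101 and 112 FPKM), were 1.12-fold and 1.11-fold higher. Idh3a therefore made up 14.9% and 19.5% of the 3 subunits, while the ratio of Idh3b to Idh3g was 0.917 and 0.918.

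The NADP-dependent isocitrate dehydrogenases are encoded by Idh2, for the mitochondrial form, and Idh1, for the cytosolic one. Idh2 was at 18.2 FPKM in Nrn1+/- and 27.8 FPKM in Nrn1-/- cells, 1.53-fold higher (1.39 to 1.68), and its log2 ratio of 0.586 lies just past the threshold of 0.585. Idh1 was at 3.32 and 2.90 FPKM, with an interval of the fold (0.740 to 1.03) that includes no difference. Idh2 thus made up 84.6% of the pair in the Nrn1+/- library and 90.6% in Nrn1-/- cells.

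The later steps were higher by similar amounts. Ogdh and Dlst, components of the 2-oxoglutarate dehydrogenase complex, were at 48.0 and 61.2 FPKM and at 58.0 and 75.2 FPKM. Of succinyl-CoA synthetase, the shared subunit Suclg1 was at 51.7 and 65.1 FPKM, the ATP-linked Sucla2 at 30.1 and 34.6 FPKM and the GTP-linked Suclg2 at 21.6 and 28.6 FPKM. Fh1, fumarase, was at 35.2 and 50.7 FPKM, 1.44-fold higher. The folds of these 6 genes ran from 1.15 to 1.44.

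The mitochondrial malate dehydrogenase Mdh2 was at 227 FPKM in Nrn1+/- and 322 FPKM in Nrn1-/- cells, 1.42-fold higher, and the cytosolic Mdh1 at 127 and 138 FPKM, 1.09-fold higher. Aco1, the cytosolic aconitase that also acts as an iron-regulatory protein, was at 13.7 and 17.3 FPKM. Among the 12 members whose enzymes are mitochondrial, all were higher as deposited, with log2 ratios of 0.16 to 0.61. Of all genes compared, 52.3% were higher. At a total of 1000000, Idh3b, Idh3g and Sucla2 of the 12 were lower, where 24.4% of all genes were higher.

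Beyond the 49 genes, 57 other genes of these pathways were listed, of which 41 had a mean of at least 1 FPKM. Of these 30 were higher as deposited (73.2%, against 52.3% of all genes compared) and 11 lower. Past 1.5-fold were 4 higher (9.76%) and 1 lower, beside 7.5% and 5.27% of all genes compared. The median log2 ratio of the 41 was 0.25 as deposited. At a sum of 1000000 it was -0.033, where the median of all genes was -0.25. The 4 higher were Slc16a1, a lactate carrier, Galm, a galactose mutarotase (13.0 and 20.6 FPKM), Prps1, which makes phosphoribosyl pyrophosphate from ribose 5-phosphate (57.5 and 89.7 FPKM), and Got2, the mitochondrial aspartate aminotransferase (66.7 and 111 FPKM). The lower one was Pck2, the mitochondrial phosphoenolpyruvate carboxykinase, at 34.5 and 21.3 FPKM.

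Carriers at the ends of glycolysis differed less than its lower steps, apart from Slc16a1. The glucose carrier genes Slc2a1 and Slc2a3 were at 34.6 and 39.6 FPKM and at 17.9 and 22.3 FPKM in the Nrn1+/- and Nrn1-/- libraries. The lactate carriers were Slc16a1, at 18.7 and 33.6 FPKM, and Slc16a3, at 27.9 and 36.6 FPKM. The subunits of the mitochondrial pyruvate carrier, Mpc1 (48.8 and 46.3 FPKM) and Mpc2 (26.8 and 28.7 FPKM), differed by at most 1.07-fold, with intervals that include no difference.

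**Figure D5:**
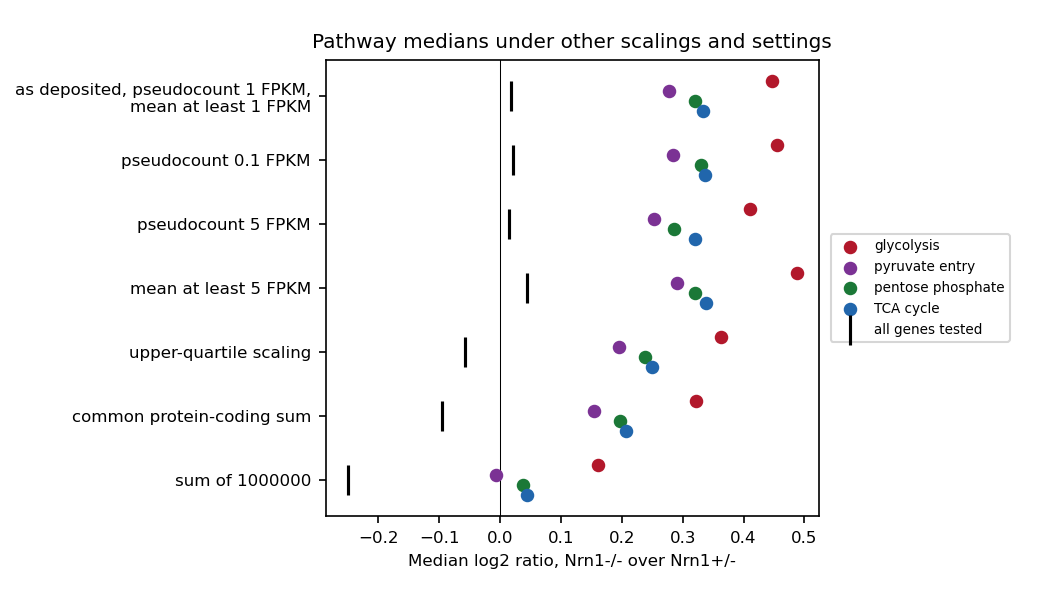
Median log2 ratio (Nrn1-/- over Nrn1+/-) of each pathway as coloured points and of all genes compared as black bars, as deposited and under 6 other settings. Glycolysis has the highest of the 4 medians under each setting drawn, and only at a sum of 1000000 does a pathway median, that of pyruvate entry, fall below 0.

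The size of these differences depended on how the libraries were scaled. Protein-coding genes accounted for 593035 of 645876 FPKM in the Nrn1+/- library and for 647545 of 790935 FPKM in the Nrn1-/- library. Scaling to a total of 1000000 thus also takes in rows not counted as protein-coding, which the common protein-coding sum leaves out. The log2 factors of these scalings, Nrn1-/- against Nrn1+/-, were -0.29 and -0.13. With upper-quartile scaling 41 of the 49 genes were higher, 8 past 1.5-fold higher and 2 lower, against 43.5%, 5.57% and 7.25% of all genes. With a common protein-coding sum the counts were 41, 4 and 2, against 39%, 4.91% and 8.84%. At a total of 1000000 they were 28, 0 and 2, against 24.4%, 3.27% and 17.6%. A sum of 1000000 moved the median of all genes compared by -0.27 and a common protein-coding sum by -0.11, and pathways are therefore also given against that median. Glycolysis lay 0.43 above the median of all genes as deposited, 0.42 with a common protein-coding sum and 0.41 with a sum of 1000000. The TCA cycle lay 0.31, 0.30 and 0.29 above it, the pentose phosphate pathway 0.30, 0.29 and 0.29, and pyruvate entry 0.26, 0.25 and 0.24.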

How the data were processed

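Per the labels' protocols, RNA of sorted cells was extracted with a column kit, poly(A) RNA was selected, and randomly primed NEBNext Ultra libraries were made. The authors deposited gene-level FPKM, a unit inferred from the values and from the Cuffnorm named in the submitters' processing notes, which further list FastQC, TopHat, Cuffdiff, mm10 and GRCm38. Annotation, filters and the scaling applied across libraries are not stated. Upper-quartile, total and protein-coding-total scaling and centring on the median were therefore tried.

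Rows sharing a symbol were summed, log2 ratios used a pseudocount of 1 FPKM, and only genes averaging 1 FPKM or more entered (Python 3.11.15, pandas 2.3.3). Depth was estimated from genes with 1 annotated transcript of GENCODE M21, whose low values, times length less 210 bases, lay within 0.1 of whole multiples of 0.0191 (Nrn1+/-) and 0.0249 (Nrn1-/-) FPKM times kilobase for 95.5% and 95.8% of genes. Provided FPKM were scaled to own totals, the Nrn1+/- library held 1.30 times as many fragments. Fragment counts of a gene used these steps and its median coding transcript length, so they are approximate, and fragments are not independent molecules. Positions came from GENCODE M21. All members were named, and of the other pathway genes those past 1.5-fold, the carriers, and up to 3 per direction with the largest ratios at 20 FPKM or more. Some genes and marker values are not reported here, and the planned comparison of protein sequences was not run. Members and lists were chosen with earlier results of these data known.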

Additional observations from a re-analysis of the deposited data

How the results depend on the processing

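Settings were changed one at a time. With each library at a total of 1000000, the median log2 ratio was 0.16 for glycolysis, 0.038 for the pentose phosphate genes, 0.044 for the TCA cycle, -0.0074 for pyruvate entry and -0.033 for the other pathway genes. That scaling left 0 of the 49 genes past 1.5-fold higher and 2 lower (Eno2 and Pdk2), and put the log2 ratio of Nrn1 at -3.93. With a common protein-coding sum the medians were 0.32, 0.20, 0.21, 0.15 and 0.13 in the same order, with 4 genes higher (Hk2, Gapdh, Pgam1 and Eno1), 2 lower and Nrn1 at -3.70. Both shifts follow from the scaling factors alone. Upper-quartile scaling left 8 higher and 2 lower. A pseudocount of 0.1 FPKM gave 2 lower and Nrn1 at -3.82, and one of 5 FPKM gave 9 higher, 0 lower and Nrn1 at -2.89. A minimum mean of 5 FPKM removed Pdk2 and left 0 lower, and no filter brought the median of the other pathway genes to 0.086 by adding unexpressed genes.

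Keeping the highest row of a symbol changed none of the results listed, and centring on the median of all genes left 10 genes past 1.5-fold higher, without Idh2. No library could be left out, and no paired analysis was possible because there was 1 library per genotype. Depth limits the genes under 5 FPKM most: Hk3 rested on about 189 and 163 fragments and Aldoc on about 308 and 182.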

Other observations

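Near-identical copies of the glycolysis genes were also listed with values. Eno1b, a retrocopy of Eno1, was at 2.63 FPKM in Nrn1+/- and 4.58 FPKM in Nrn1-/- cells. Pgam1-ps2, a processed pseudogene, was at 16.1 and 23.5 FPKM, and Pgk1-rs7 at 4.84 and 6.46 FPKM. All 3 were higher in the Nrn1-/- library as deposited, as were Eno1, Pgam1 and Pgk1. Which of these reads belong to the parent genes was not tested.

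As deposited, enzymes that feed the TCA cycle from amino acids did not share one direction. Glud1, glutamate dehydrogenase, was at 175 FPKM in Nrn1+/- and 151 FPKM in Nrn1-/- cells, while Got1, the cytosolic aspartate aminotransferase, was at 88.3 and 106 FPKM. Pcx, pyruvate carboxylase, was at 2.93 and 4.17 FPKM and Me2, a mitochondrial malic enzyme, at 33.7 and 49.02 FPKM. Acly, which returns citrate to cytosolic acetyl-CoA, was at 94.3 and 109 FPKM. Among succinate dehydrogenase subunits Sdha was at 109 and 126 FPKM and Sdhd at 90.9 and 121 FPKM.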
